A study of Caenorhabditis elegans with 2 samples.

Results

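The genes of the small nuclear RNAs (snRNAs) and of the spliced leader RNAs of Caenorhabditis elegans were examined for peaks of the transcription factor COG-1. They were chosen as all genes that the Ensembl annotation of the WBcel235 assembly gives the biotype snRNA, together with every gene whose symbol begins with sls-. The rule gave 129 genes of 46890 annotated nuclear genes. All 129 carried the biotype snRNA, so the symbols added none. They hold 94 distinct sequences, and 44 of the genes share their whole sequence with at least 1 other, so that many of these genes are copies and not independent observations.

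COG-1 binds DNA through a homeodomain and belongs to the NK6 family. Its binding was measured by chromatin immunoprecipitation and sequencing (ChIP-seq) in worms of strain OP541, which carry the unc-119(tm4063) mutation on chromosome III and the integrated transgene wgIs541, a stable insertion that makes COG-1 with GFP and FLAG tags at its C-terminus. The tagged protein was pulled down from sonicated chromatin of whole hermaphrodite embryos at the mid-embryo stage, 3 h after synchronization by bleaching, with an antibody against GFP. Both libraries belong to 1 group, as biological replicates 1 and 2, so the design holds no contrast between conditions and no test was made; an input or untagged library was not analysed here, and whole embryos mix all cell types. Peaks are the 1841 peaks of the authors' list thresholded by the irreproducible discovery rate (IDR), a rule that keeps regions by how alike they rank in replicates.

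Most C. elegans messenger RNAs receive a short leader at their 5′ end by trans-splicing. SL1 RNA, made by the sls-1 genes, gives the leader to most first or only genes of a transcript, and SL2 RNAs, made by the sls-2 genes, give it mainly to the downstream genes of operons. The snRNAs U1, U2, U4, U5 and U6 are the RNA cores of the spliceosome: U1 and U2 recognise the ends of the intron, U5 holds the exons, and U6, carried in by U4, forms part of the catalytic centre. In animals these short genes have promoters of their own, in which the SNAPc complex binds a proximal sequence element upstream of the start. U6 genes are transcribed by RNA polymerase III and the others by RNA polymerase II.

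Neither the Ensembl nor the RefSeq annotation names any of the 129 genes as U1, U2, U4, U5 or U6. The sls-1, sls-2 and smy genes were therefore kept by symbol, where smy genes make the SmY RNAs found with trans-splicing particles in nematodes, and the rest were grouped by sequence alone and called after 1 gene each. Such a group joins genes whose local alignment score reached 0.5 of the longer length. Letters known from the snRNAs were then counted within the genes on their own strand, as a description that names no gene. ACTTACC, with which U1 RNA pairs to the 5′ splice site, was in 12 of 13 genes of the sup-39 group. GTAGTA, with which U2 pairs to the branch point, was in 18 of 19 genes of the C05G6.4 group, and CCTTTTA of the U5 loop was in 11 of 12 genes of the F38E11.10 group. ACAGAGA, the box of U6 that pairs with the 5′ splice site, was in 22 of 24 genes of the W05B2.8 group. AGCTTTG, the letters at the start of U4 RNA, opened C52E4.8 and was found in 5 of 5 genes of its group. ATTTTTG, a stretch of the type bound by the ring of Sm proteins, was in 72 of the 129 genes, among them 13 of 18 sls-2 genes and 10 of 10 smy genes. It was in 0 of 24 genes of the W05B2.8 group and in 0 of 12 sls-1 genes. Only this exact word was counted, so variants of it were missed.

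Whole genes are shown for 3 genes near a peak and for sls-1.10, an SL1 gene without one, so that the leader and the core letters can be compared. They were read from the RefSeq sequence of WBcel235 (ce11), and the capitals mark ATTTTTG and the letters named above for each group. sls-2.1 lies at chrII:5844865-5844974 on the plus strand and sup-6 at chrII:12944803-12944967 on the minus strand. C52E4.8 lies at chrV:11980118-11980261 on the plus strand, and sls-1.10 at chrV:17120694-17120791 on the minus strand.
sls-2.1: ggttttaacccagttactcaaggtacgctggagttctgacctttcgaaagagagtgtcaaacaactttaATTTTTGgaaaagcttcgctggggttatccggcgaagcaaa
sls-1.10: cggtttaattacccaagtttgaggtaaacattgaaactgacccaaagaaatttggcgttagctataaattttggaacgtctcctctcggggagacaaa
sup-6: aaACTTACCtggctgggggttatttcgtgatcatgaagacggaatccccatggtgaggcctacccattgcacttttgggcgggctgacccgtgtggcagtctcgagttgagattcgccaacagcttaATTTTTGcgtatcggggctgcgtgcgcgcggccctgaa
C52E4.8: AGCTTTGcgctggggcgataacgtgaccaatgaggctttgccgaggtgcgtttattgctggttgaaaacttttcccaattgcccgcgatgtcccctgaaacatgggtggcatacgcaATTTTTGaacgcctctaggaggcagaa

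The 100 bases before the start are shown for genes near a peak because most of the summits lay there. In the sls-2 genes other than sls-2.8 the capitals mark a run of 15 bases at the same place in 4 of the 18 sls-2 genes, from 65 to 51 bases before the start. In the other genes the capitals mark words of 7 letters that the upstream stretches of these genes share, and TATATAA. All of these words were chosen after the sequences were seen.
sls-2.1: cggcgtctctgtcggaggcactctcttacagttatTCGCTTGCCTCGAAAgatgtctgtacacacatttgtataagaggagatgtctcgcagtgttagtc
sls-2.2: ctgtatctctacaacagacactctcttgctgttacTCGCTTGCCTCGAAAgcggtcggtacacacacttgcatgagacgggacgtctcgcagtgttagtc
sls-2.8: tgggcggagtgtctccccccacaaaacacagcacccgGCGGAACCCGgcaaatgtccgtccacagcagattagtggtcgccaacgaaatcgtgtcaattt
sup-6: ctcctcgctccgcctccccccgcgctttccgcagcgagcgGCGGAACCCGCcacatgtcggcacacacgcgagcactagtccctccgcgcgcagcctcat
W05B2.8: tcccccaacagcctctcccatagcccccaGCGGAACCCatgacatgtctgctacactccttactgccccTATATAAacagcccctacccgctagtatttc
F54D8.7: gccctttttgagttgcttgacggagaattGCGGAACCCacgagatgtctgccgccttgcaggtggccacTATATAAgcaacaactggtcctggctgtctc
C52E4.8: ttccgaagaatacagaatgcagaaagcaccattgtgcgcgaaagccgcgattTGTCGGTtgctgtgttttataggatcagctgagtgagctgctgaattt

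COG-1 peaks lay beside few of these genes, and 6 of the 12 that had one encode SL2 RNA. A gene was taken as near a peak when a summit, the position of highest signal in a peak, lay within 500 bp of the gene body. By this rule 12 of the 129 genes were near a peak, which is 9.30% with an exact binomial 95% interval of 4.90% to 15.7%. The same rule called 5.75% of all annotated nuclear genes (2695 of 46890), so the interval holds the background. Of the 46890 genes, 15363 are piRNA genes, with a median length of 21 nt, and 0.866% of them were near, which lowers this background. The piRNA genes are part of every share of all genes given below. With the distance taken to the start alone, 11 genes (8.53%) were near, against 4.46% of all genes. The share was close to that of protein-coding genes (8.26%) and miRNA genes (8.43%), and lower than that of snoRNA genes (79 of 346, 22.8%) and tRNA genes (156 of 612, 25.5%). These shares are descriptions: gene lengths differ between the classes, and copies share sequence. The interval and those that follow cover counting error only.

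**Figure D1:**
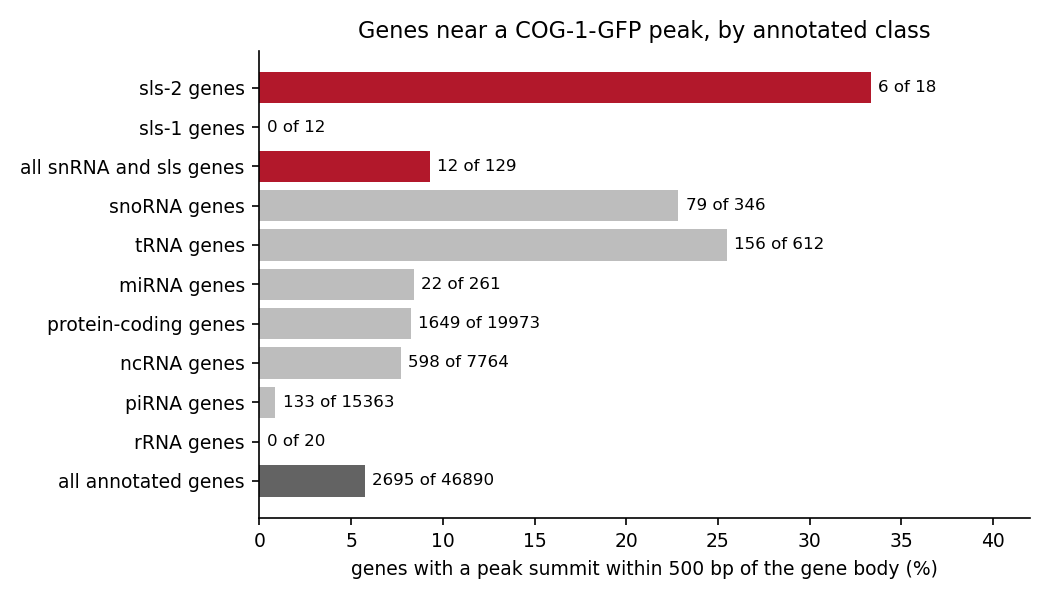
Bars give the percentage of genes in each annotated class with a peak summit within 500 bp of the gene body, with the number of genes beside each bar. Red bars are the sls-2, sls-1 and all 129 snRNA and sls genes, light bars other classes and the dark bar all annotated genes; 6 of 18 sls-2 genes and 0 of 12 sls-1 genes were near a peak.

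The genes near a peak were spread unevenly over the groups. Among the SL2 genes 6 of 18 were near (33.3%, 13.3% to 59.0%), namely sls-2.1, sls-2.2, sls-2.3, sls-2.4, sls-2.8 and sls-2.9. None of the 12 SL1 genes was near (upper bound 26.5%), and none of the 10 smy genes was (upper bound 30.8%). The 12 SL1 genes hold only 2 distinct sequences, so their bound counts copies as if they were separate observations. The F38E11.10 group had 2 of 12, F38E11.10 and F32B5.9. The W05B2.8 group had 2 of 24, W05B2.8 and F54D8.7. The sup-39 group had 1 of 13, which was sup-6, a locus known in C. elegans genetics from suppressor mutations. The C52E4.8 group had 1 of 5, C52E4.8 itself. The C05G6.4 group, the one with the GTAGTA letters, had 0 of 19, with an upper bound of 17.6%. The 4 genes of the B0213.21 group, the 2 genes of the F20D1.21 group and the 10 genes in no group had none.

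The 12 genes were reached by 14 distinct peaks, 0.760% of the 1841 peaks. W05B2.8, sls-2.1 and sls-2.4 each had 2 peaks, and sls-2.2 and sls-2.3 shared 1. The peaks stood high in the list: ranked by the authors' signal, with rank 1 the strongest, their median rank was 319, against 921 for all peaks. The second peaks of W05B2.8, sls-2.1 and sls-2.4, of ranks 209, 218 and 261, each adjoin a stronger peak, so the 14 are not independent. Of the 14, 12 ranked above the median of the list. Their median signal was 173, against 111 over the list, in which signals ran from 77.7 to 769. The signal is the authors' value, its scaling was not given in the sources used here, and it is used only to rank peaks within 1 list.

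Ordered by strength, the SL2 genes led. The peak of sls-2.1 had rank 17 and signal 372, with its summit 23 bp before the start. The peak of sls-2.4 (chromosome I, 4172206 to 4172315, plus strand) had rank 44 and signal 308, and its summit also lay 23 bp before the start. Both genes had a second peak 178 bp past the start, just downstream of the gene, with rank 218 at sls-2.1 and rank 261 at sls-2.4; its span overlaps or touches that of the first. So in the IDR list the pair of genes on different chromosomes had summits at the same distances. In the lists of replicates 1 and 2 the first summit lay 52 bp and 37 bp before the start at sls-2.1. At sls-2.4 it lay 19 bp and 22 bp before the start. The spacing was not particular to this pair: W05B2.8 had summits 2 bp before and 200 bp past its start. In the pooled list, which also holds weaker regions, most other near genes had a second summit at a like distance from the first. At F38E11.10 the summits lay 32 bp before and 176 bp past the start. At sls-2.2 they lay 71 bp and 271 bp past it, and at sls-2.8 89 bp before and 112 bp past it. At sup-6 no second region was listed. What sets the spacing was not tested.

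sls-2.2 and sls-2.3 lie tail to tail on chromosome II, at 5543598 to 5543707 on the plus strand and 5544164 to 5544273 on the minus strand. One peak of rank 81 and signal 267 served both: its summit was inside sls-2.2, 71 bp past the start. For sls-2.3 the same summit was 495 bp past the end of the gene, so that sls-2.3 counts as near only through its neighbour and has no summit at its own start. It is also the gene just inside the 500 bp limit; the next farthest near gene, sls-2.9, lay 177 bp from its summit. The nearest gene outside the limit, Y57G11C.35 of the C05G6.4 group, lay 1321 bp from a summit. Few genes stood close to the limit on either side: 10 of the 117 genes not near lay within 5000 bp of a summit, and their median distance was 34006 bp.

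The genes without a peak that lay nearest to a summit differed widely between groups. In the F38E11.10 group it was F42C5.12, at 2670 bp, and in the sup-39 group T27E4.12, at 4192 bp. Among the smy genes it was smy-12, at 7643 bp, and among the genes in no group F56A12.5, at 5982 bp. F20D1.21 lay at 8807 bp, T11F9.16 of the C52E4.8 group at 16782 bp and C41G6.17 of the B0213.21 group at 38108 bp. The sls-1 genes were the farthest: all 12 lie on chromosome V, and the nearest of them, sls-1.12, was 525860 bp from a summit. Genes of rRNA, another repeated class, were near a peak in 0 of 20 cases. Where they lie relative to the sls-1 genes was not compared here, so the counts of these classes need not be independent.

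sls-2.8 and sls-2.9, the other SL2 genes near a peak, had peaks of lower rank. The summit at sls-2.9 (chromosome I, 13297877 to 13297985, plus strand) lay 177 bp upstream, with rank 532 and signal 141. Replicate 2 also listed a weaker region there, of rank 1537 and q-value 0.000306, with its summit 23 bp before the start. That peak was also within 500 bp of a tRNA gene, WBGene00014446, the only peak of the 14 near a tRNA, snoRNA, miRNA or rRNA gene; over all peaks 13.1% were. The summit at sls-2.8 (chromosome III, 12250465 to 12250575, plus strand) lay 89 bp upstream, with rank 728 and signal 123, and those of the replicates 31 bp (replicate 1) and 56 bp (replicate 2) upstream. It fell in the start windows of the coding genes tim-1, a homologue of the fly clock gene timeless, and Y75B8A.23.

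In the W05B2.8 group the strongest peak was at W05B2.8 itself (chromosome III, 10989679 to 10989780, plus strand), inside an intron of the dynein heavy chain gene dhc-4. Its summit lay 2 bp before the start, with rank 71 and signal 275, and a second peak of rank 209 had its summit 200 bp past the start. F54D8.7 (chromosome III, 5080798 to 5080898, minus strand) had its summit 20 bp upstream, with rank 377 and signal 161. The whole sequence of W05B2.8 occurs in 14 of the 129 genes and that of F54D8.7 in 3. No other gene of the group was near an IDR peak. Weaker regions of the pooled list did lie at some of them, and such a region was near 10 of the 24 genes of the group. At C28A5.7, a copy of the W05B2.8 sequence, it had rank 1999 and q-value 0.00425, with its summit 7 bp past the start. The group's nearest gene without one, F54C8.8, lay 2253 bp from a summit.

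In the F38E11.10 group, F38E11.10 (chromosome IV, 9444642 to 9444763, plus strand) had its summit 32 bp upstream, with rank 431 and signal 153. F32B5.9 (chromosome I, 2688947 to 2689069, plus strand), in an intron of cpz-1, a cathepsin Z gene, had its summit 65 bp upstream, with rank 972 and signal 108. sup-6, in an intron of F58G1.7, had its summit 1 bp past the start, with rank 893 and signal 112. The weakest peak of the set, of rank 1327 and signal 92.2, had its summit 21 bp before C52E4.8. The same summit lay 374 bp upstream of snr-4, which encodes an Sm protein, a subunit of the ring that assembles on most snRNAs.

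The summits sat just upstream of the gene in most cases. Of the 12 near genes, 9 (75.0%) had their nearest summit before the start, 2 inside the gene and 1 past its end, and the median position was 22 bp before the start. Over all near genes of the annotation 50.9% had it before the start. Of the 12, 8 (66.7%) had it within 100 bp before the start. The same was true of 60.8% of near snoRNA genes, 21.8% of near tRNA genes, 9.28% of near protein-coding genes and 12.6% of all near genes. The closeness was thus shared with the snoRNA genes, whose near members had a median position of 32 bp before the start. In a short gene most positions within reach lie outside the body, so classes of different length are not set on equal terms.

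**Figure D2:**
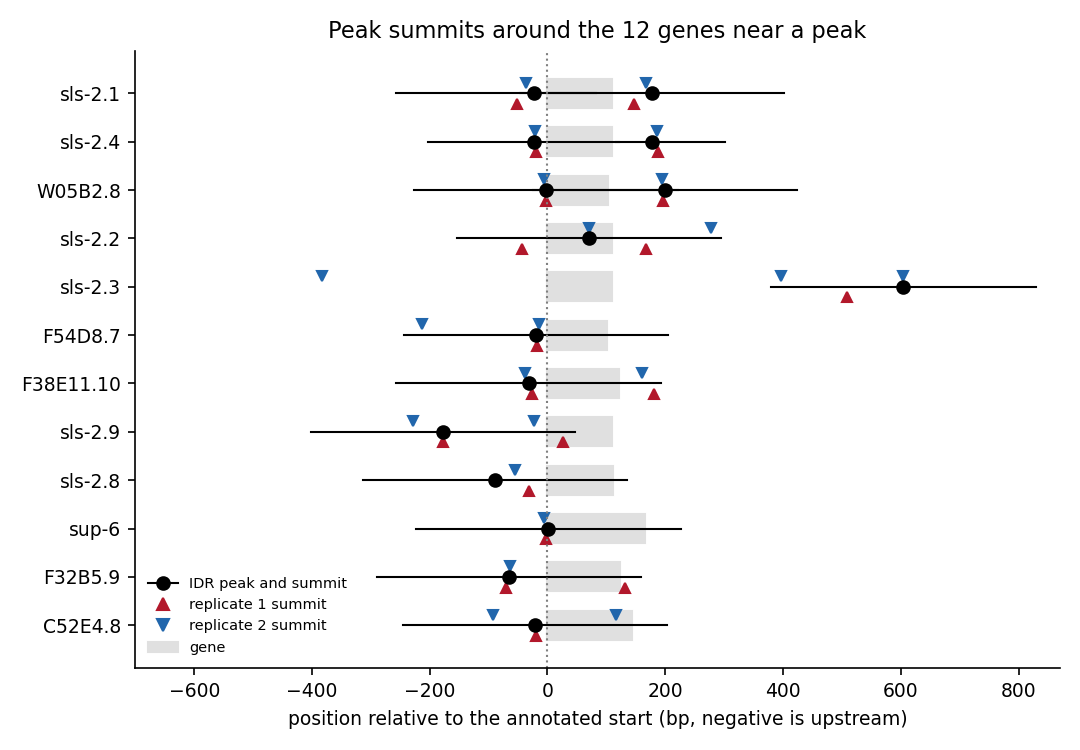
Each row is 1 of the 12 genes near a peak, ordered by peak rank; the x axis is the position relative to the annotated start in bp, grey boxes are genes, black lines and circles are IDR peaks and their summits, and triangles are the summits of each replicate's own list within 500 bp of the gene. Most summits stand just before the start, sls-2.1, sls-2.4 and W05B2.8 have a second one at 178, 178 and 200 bp, and the summit near sls-2.3 lies 604 bp past its start.

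Each replicate has a relaxed list of its own, which holds background as well as enriched regions, 21617 regions in replicate 1 and 20247 in replicate 2. All 12 near genes had a region within 500 bp in both lists. This does not set them apart, since 1833 of the 1841 IDR peaks had a region at their summit in both. For the sls-2.1 peak the region at the summit had rank 20 in replicate 1 and rank 18 in replicate 2, and for the sls-2.4 peak rank 76 and rank 34. For the W05B2.8 peak the ranks were 63 and 90. These leading peaks were thus among the strongest regions of both libraries. The peak shared by sls-2.2 and sls-2.3 had rank 41 in replicate 1 and rank 164 in replicate 2. In replicate 1 sls-2.2 also had a region of rank 28 with its summit 43 bp before the start, while replicate 2 listed no summit before the start. The second peaks had ranks 128 and 170 at sls-2.1, 254 and 307 at sls-2.4, and 154 and 256 at W05B2.8.

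The weaker peaks moved more between the replicates, and not all in 1 direction. F54D8.7 had rank 554 in replicate 1 and 366 in replicate 2, and F38E11.10 had 781 and 305. sls-2.9 had 388 and 689, and sls-2.8 had 408 and 1243. sup-6 had 1547 and 764, and F32B5.9 had 536 and 1756. C52E4.8 stood apart: rank 3979 in replicate 1, where the region had a q-value of 0.33, and rank 957 in replicate 2, where the q-value was 0.000306. Its region was thus far higher in the list of replicate 2. Of the 14 peaks, 13 were among the strongest 1841 regions of both replicates, and of all 1841 peaks 66.2% were. These shares do not compare peaks of like rank, since 12 of the 14 ranked above the median of the IDR list.

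**Figure D3:**
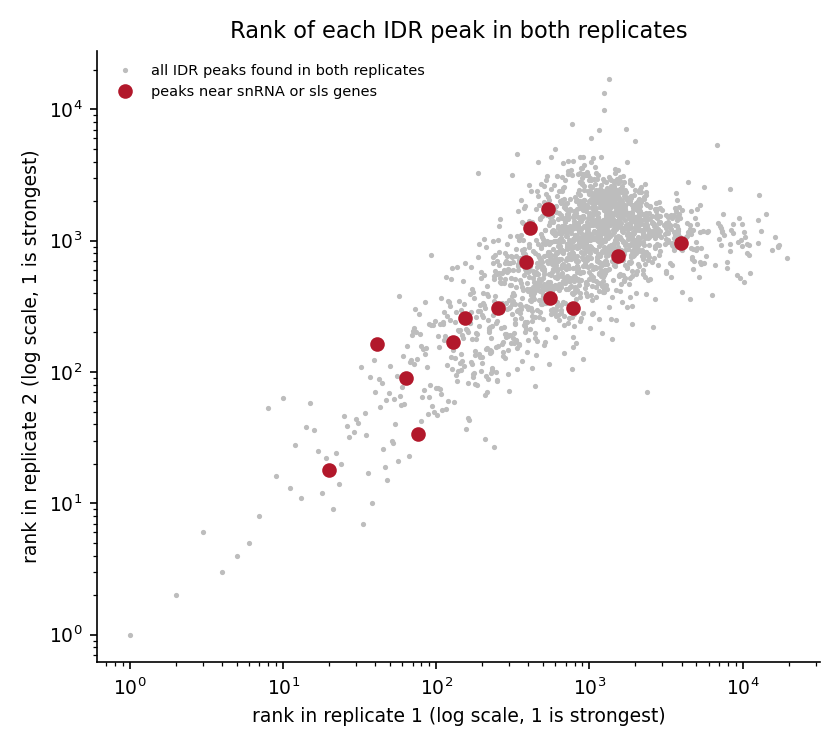
Each point is an IDR peak with a region in both replicate lists, by the rank of that region in replicate 1 (x) and replicate 2 (y), both on log scales with rank 1 the strongest; red points are the 14 peaks near snRNA and sls genes. The red points run along the cloud from ranks 20 and 18 (sls-2.1) to ranks 3979 and 957 (C52E4.8).

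Below the threshold, the pooled relaxed list taken whole reached more of these genes, but about as often as other genes. A summit of the pooled relaxed list lay within 500 bp of 51 genes (39.5%), against 37.0% of all genes. Of the 117 genes not near an IDR peak, 39 had such a region, 22 had a region in both replicate lists and 66 had none in any list. The matching shares over all genes not near an IDR peak were not computed, so counts among the 117 have no background beside them. At a q-value of at most 0.05 in the pooled list, 6 of the 117 remained: smy-1, C28A5.7, F08G2.10, T08G5.11, sup-39 and mir-1831, which were chosen for naming after their values were seen. mir-1831, annotated as an snRNA gene of 22 nt, lies inside sup-39, and the pair shares 1 region.

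Their regions had pooled ranks between 1965 (smy-1) and 2430 (sup-39), just past the 1841 of the IDR list. smy-1 had rank 1770 in replicate 1 and 2024 in replicate 2. sup-39 had its summit 8 bp past the start, close to the position at sup-6, with rank 3668 in replicate 1 and 2586 in replicate 2. By group, a pooled region was near 11 of 18 sls-2 genes, 10 of 13 of the sup-39 group, 10 of 24 of the W05B2.8 group, 6 of 10 smy genes, 5 of 19 of the C05G6.4 group and 0 of 12 sls-1 genes.

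**Figure D4:**
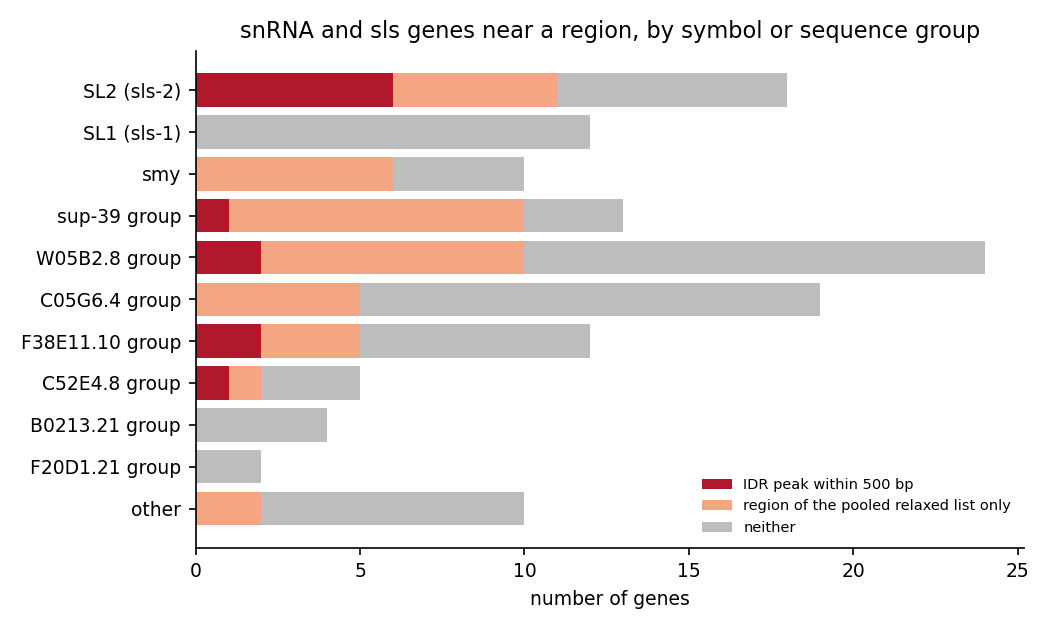
Bars count the genes of each symbol or sequence group, split into those with an IDR peak within 500 bp (red), those with a region of the pooled relaxed list only (light red) and those with neither (grey). Red appears in 5 groups, with 6 sls-2 genes, and the 12 sls-1 genes have no region of either list.

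The sequence around many of these genes is repeated in the genome, which bears on what a short read can be placed on. For each gene the share of 32-base words within 250 bp of the start that occur once in the genome was taken. It was at or above 74.6% in all 12 near genes (median 85.9%, highest 100%) and ran from 0% to 100% in the others (median 77.6%). At the IDR summits themselves the median was 100%, and 8 of the 1841 (0.435%) were under 50%. The 12 sls-1 genes had a median of 0% and at most 18.6%, and the C05G6.4 group a median of 52.2%; both had no gene near a peak. In all, 25 of the 129 genes were under 50%, and 0 of them were near a peak. Among the other 104 genes, 12 (11.5%) were near. Over all annotated genes 5.89% of those at 50% or more were near, and 1.02% of those under it. Repeats do not go with every empty group, since the smy genes had a median of 99.5% and 0 of 10 near. How reads with several matches were treated was not given in the sources used here, and the part of uniqueness in these counts was not tested.

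**Figure D5:**
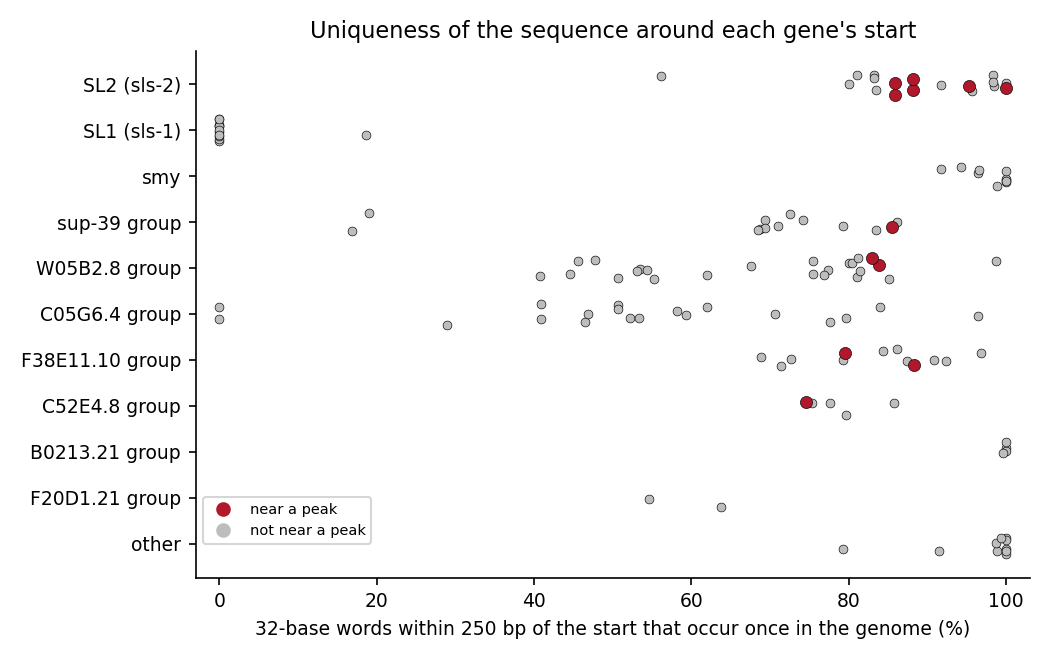
Each point is 1 of the 129 genes, by symbol or sequence group (rows, spread vertically for legibility), placed on the x axis by the percentage of 32-base words within 250 bp of its start that occur once in the genome; red points are near a peak. The red points lie at or above 74.6%, and the sls-1 genes at or below 18.6%.

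Within the SL2 genes, 4 of those near a peak were alike in sequence. sls-2.1, sls-2.2, sls-2.3 and sls-2.4 were 90.9% to 97.3% identical to each other and 69.4% to 80.0% identical to the other sls-2 genes. Exactly these 4 of the 18 begin with the same 22 bases as sls-2.1, the stretch that holds the leader, out of 11 distinct starts in the family. All 4 were near a peak, sls-2.3 only through the peak at sls-2.2, and 2 of the other 14 were. The run of 15 bases shown in capitals for sls-2.1 and sls-2.2 was in the 100 bases upstream of these 4 genes and of no other of the 46890. It was chosen, after the sequences were seen, because these 4 alike genes share it, so its absence elsewhere is no test. Of the other sls-2 genes, sls-2.18 lay nearest to a summit, at 11641 bp. Uniqueness around the sls-2 starts ran from 56.1% to 100%, with a median of 88.1%.

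The upstream stretches of the genes shared letters that few other genes have, near a peak or not. The words were chosen as those most often shared by these same genes, so their excess over all genes is no test. All genes include the 129. From 80 to 41 bases before the start, on the gene's strand, AACCCGC was in 33 of the 129 genes (25.6%), against 0.188% of all annotated genes. CGGAACC was in 32 (24.8%), against 0.181%, and it was in 5 of the 12 near genes and 27 of the 117 others. TGTCGGT was in 26 (20.2%), of which 13 in the C05G6.4 group, against 0.213%. AACCCGC can overlap CGGAACC by 4 letters. Copies of 1 gene raise these counts, and whether the words belong to the proximal sequence element was not tested. From 40 to 16 bases before the start TATATAA was in 16 genes, 15 of them of the W05B2.8 group, both W05B2.8 and F54D8.7 included, against 0.934% of all genes.

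Words known as homeodomain sites, and CACGTG and GAGAGA, were counted within 50 bp of the 14 summits on both strands. TAATT was in 0 windows, against 16.6% of the windows at all 1841 peaks. The longer TAATTA and TTAATTA, which contain it, were necessarily in 0 as well, against 2.66% and 1.36%. CACGTG was in 0, against 2.72%. GAGAGA was in 1 (7.14%), against 28.9%. No difference was tested on these 14 windows, and a count of 0 among them is near the share at all peaks for the rarer words. In the window from 250 bases upstream to 50 downstream of the start, TAATTA was in 25 of the 129 genes (19.4%), against 16.6% of all annotated genes. TAATT was there in 69.8% of the 129 genes and in 6 of the 12 near ones, against 78.3%. GAGAGA was there in 14.7% of the 129 and in 5 of the 12 near ones (41.7%), against 17.5%.

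Of the 62 genes between protein-coding genes 9 were near (14.5%), against 4.07% of all genes so placed that are not protein-coding. Of the 55 in introns 3 were (5.45%), against 3.75%. Of the 12 that overlap a coding gene's exon 0 were, against 2.98%. The genes that are not protein-coding include the 15363 piRNA genes, of which 0.866% were near. Shares by place or chromosome without the piRNA genes were not computed, so these backgrounds are not those of other short RNA genes. By chromosome the counts were 3 of 16 on chromosome I (10.8% of all its genes), 4 of 16 on chromosome II (8.16%) and 3 of 13 on chromosome III (10.1%). They were 1 of 41 on chromosome IV (2.52%), 1 of 40 on chromosome V (4.51%) and 0 of 3 on chromosome X (9.55%). The last 3 chromosomes thus had few or none of the near genes, and on chromosome IV the share in all genes was low as well.

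Of the 14 peaks, 8 had their summit in the start window of a protein-coding gene, which reaches 1000 bp before and 500 bp past its start; over all peaks 56.3% had. The genes were H41C03.3 and ZK1248.17 at sls-2.1, egg-5, which encodes an egg activation protein, at sls-2.4, cox-6A, a subunit gene of cytochrome c oxidase, at F54D8.7 and F38E11.9 at F38E11.10. The snr-4 gene shared the peak of C52E4.8, and tim-1 and Y75B8A.23 that of sls-2.8. At such places the lists cannot tell which of the neighbours the signal belongs to. Without the peaks in coding start windows, 6 genes remained near, among them W05B2.8 and sup-6, and 6 distinct peaks. That setting takes out 56.3% of all peaks. The share of all genes that stay near under it was not computed, so the fall has no background beside it.

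The proteins that make and use these RNAs were read from a list of 49 symbols, of which 43 matched a protein-coding gene. A peak lay in the start window of 9 of the 43 (20.9%), against 6.82% of the 19973 protein-coding genes. For the Sm proteins the count was 4 of 7, with snr-1, snr-2, snr-4 and snr-6. For the Lsm proteins, which form the ring on U6 and a related one in mRNA decay, it was 2 of 8, with lsm-3 and lsm-7. For Integrator, which cuts the 3′ ends of snRNAs, it was 2 of 11, with ints-2 and ints-4. For the SNAPc genes it was 1 of 7, with snpc-3.4. Of the 9 summits, 6 also lay in the start window of another coding gene, so a peak need not belong to the listed one. Of all peaks in a coding start window, 34.4% lay in more than 1. None of the 4 genes for proteins of the SL particles, of the 3 for U1 and U2 proteins or of the 3 for assembly and cap formation had one.

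The strongest of these was at snr-1, with rank 58 and signal 286, 452 bp upstream of the start and also in the start window of snx-13. ints-4 had rank 322, with the summit 97 bp past its start. The other 7 ranked below the median of the list. Among the Sm genes snr-2, with W08E3.4 in reach, had rank 1058, snr-6, with Y49E10.16, rank 1152 and snr-4 rank 1327. Among the Lsm genes lsm-7, with dnc-1, had rank 1203 and lsm-3 rank 1404. snpc-3.4 had rank 1649 with its summit 33 bp upstream, and ints-2, with trm-1, had rank 1773 with its summit 13 bp upstream. The peak of lsm-3 lay 935 bp upstream, in the start windows of 3 other coding genes as well. Of the peaks at the RNA genes 12 of 14 ranked above the median of the list, and of those at the protein genes snr-1 and ints-4 did. The peak at snr-4 is the same as that of C52E4.8 and stands in both counts.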

How the data were processed

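Genes of the listed biotype and symbols were taken from Ensembl release 115 for WBcel235, the same sequence as ce11; RefSeq symbols were matched by WormBase identifier for all 129 genes. The members and lists were chosen with earlier results of these data known. Per the deposited file listing, the authors made relaxed region lists for each replicate and the pooled replicates from alignments with a control alignment, and the IDR list from these. The deposited lists give a signal per region in the authors' scaling and a q-value as −log10, capped at a shared highest value of 3.45 in the IDR list. Of the aligner, peak caller and IDR threshold, none is given in the sources used here. Depth was unknown; the number of peaks limits the precision. The 1841 IDR peaks were the strongest pooled regions, so listing alone does not show like ranks in both replicates. The ce10 lists were not used. Positions count from 1. Sequences came from the RefSeq FASTA, and the whole sequences of some genes are not reported here.

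Distances, groups and shares were computed in Python 3.11.15 with pandas 2.3.3, numpy 2.4.6, scipy 1.17.1 (exact Clopper-Pearson intervals) and Biopython 1.88, and were checked on simulated summits. Named genes were every gene near a peak, the nearest gene without a peak in groups, pathway genes with a peak and coding genes whose start window or body holds a named summit. Nothing was tested between conditions, since there is 1 group. Alternatives covered the distance, the list, each replicate alone, peak strength, copies and neighbouring genes.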

Additional observations from a re-analysis of the deposited data

How the results depend on the processing

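Of 122 alternative values, 109 stayed within 1.5 times the reported one. The 109 include values of 0 that stayed at 0, in groups with no near gene. The 9 pathway genes with a peak became 6 with the strongest regions of replicate 2 alone. They became 8 with those of replicate 1 alone. The 12 genes near a peak became 11 at 250 bp (8.53%, against 4.22% of all genes) or by distance to the start, and 10 with the stronger 920 peaks (7.75%, against 3.11%). At 1000 bp they stayed 12 (9.30%) while the share of all genes rose to 7.35%. With pooled regions of q under 0.05 they were 18, against 8.51% of all genes. The count moved to 6 without peaks in coding start windows, where 6 distinct peaks and 3 genes with the nearest summit upstream were left. The share of all genes was not computed for that setting. The pooled list at q under 0.05 gave 22 distinct peaks with a median rank of 810.5. With the strongest 1841 regions of a single replicate in place of the IDR list, 12 genes were near in either case (against 5.70% of all genes with replicate 2 and 5.64% with replicate 1), and the sls-2 count stayed at 6. The sls-2 count was 5 at 250 bp and by distance to the start, since sls-2.3 dropped out. C52E4.8 was lost with replicate 1 alone, where smy-1 was gained, and with the stronger peaks. Of the 104 genes with 50% or more unique words, an alternative added after seeing the data, 12 were near (11.5%, against 5.89% of all such genes). Replicate support fell from 12 to 11 genes among the strongest 1841 regions of each. No paired analysis was possible because there is 1 group and no comparison between groups.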
